A study of Mus musculus with 18 samples.

Results

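The 32 genes described here encode the enzymes that build cholesterol, the proteins that control the transcription of those enzymes, and proteins that move, store or export sterols. They were chosen by name for these roles out of 54446 gene IDs counted in the series, and the choice was made with earlier results of these data known. The rule sets no threshold on a measured value, so no gene lies just inside or just outside it. All 32 passed the filter on low counts and were among the 15516 genes tested. Because results were in view when the list was made, counts over the 32 genes are descriptions, set beside the same count over all genes.

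RNA was sequenced from osterix-derived cells that were freshly sorted from mice at postnatal day 21, in 6 groups of 3 libraries. Osterix (Sp7) is a DNA-binding factor needed for osteoblasts to form. Control mice, labelled wild type, were compared with mice labelled as conditional PTH1R KO, in which the receptor for parathyroid hormone and parathyroid hormone-related protein was targeted. From each genotype 3 subsets were taken, namely bone marrow stromal cells without GFP and with the mark Tm (called marrow here), bone cells with GFP (GFP-positive bone), and bone cells without GFP and with the mark Tm (GFP-negative bone). The series places the knockout in osteoprogenitors. The promoter that drove the deletion, what drove GFP, what Tm stands for and whether each library is another animal are not stated in the labels used here. The p-values therefore measure only the spread between these libraries, which may be technical.

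Cholesterol is built from acetyl-CoA by way of mevalonate, isoprenoid units, squalene and lanosterol. When sterols are scarce, SCAP carries the membrane-bound factor SREBP-2 (encoded by Srebf2) from the endoplasmic reticulum to the Golgi, where it is cut and freed to switch on the genes of synthesis. When sterols are plentiful, the INSIG proteins hold SCAP back, and oxysterols activate the nuclear receptors LXR-alpha and LXR-beta (Nr1h3 and Nr1h2), which switch on sterol export through the transporters ABCA1 and ABCG1 and, through Mylip, the breakdown of lipoprotein receptors. In the skeleton, inherited defects of Dhcr7, Ebp and Nsdhl are known to cause malformations of cartilage and bone.

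SREBP acts through a short promoter element, usually next to a CCAAT box bound by NF-Y. The windows of RefSeq promoters (250 bases before to 50 after each start, build GRCm38.p6, which is mm10) were searched on both strands for the element TCACNCCA, for CCAAT and for the E-box CACGTG. Of the 32 genes, 26 had a window. Fdps, Fdft1, Sqle, Stard4, Npc1 and Abcg1 had none in the table. The element TCACNCCA was found in 3 of 26 genes (11.5%), Hmgcs1, Msmo1 and Srebf2, against 4.97% of all 27025 genes with a window. CCAAT was found in 21 of 26 (80.8%), among them 14 of the 15 synthesis enzymes with a window, against 41.1% of all genes. CACGTG was found in 6 of 26 (23.1%), Abca1, Dhcr7, Hsd17b7, Insig1, Sc5d and Scap, against 8.09% of all genes. These 27025 genes were not limited to the genes tested here, whereas all 26 were among those tested. TCACNCCA ends in the letters with which CCAAT begins, so that matches of these 2 motifs can overlap, which they do not in the stretches below. Stretches of 120 bases that hold the element are shown for Hmgcs1 and Srebf2. That of Msmo1 is left out because it overlaps the annotated gene. The size of the knockout effect played no part in this choice. Capitals mark TCACNCCA and CCAAT, the latter written as ATTGG where it lies on the other strand. The stretch of Hmgcs1 is chr13:119690154-119690273 and that of Srebf2 is chr15:82147047-82147166, both on the plus strand of mm10 and upstream of the annotated gene.
Hmgcs1: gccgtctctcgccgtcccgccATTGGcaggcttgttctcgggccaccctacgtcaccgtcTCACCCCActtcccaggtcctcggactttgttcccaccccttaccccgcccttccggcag
Srebf2: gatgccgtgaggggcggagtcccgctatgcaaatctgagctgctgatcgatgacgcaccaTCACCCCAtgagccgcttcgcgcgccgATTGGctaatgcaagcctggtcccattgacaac
A match describes these letters in this window and is not a measured binding site.

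Library totals ran from 16443595 to 27160257 counts. Levels are CPM values, that is counts scaled to the TMM-adjusted library total, and a count of 0 still allows up to 3 counts, which is 0.0966 to 0.216 CPM by library and covers counting error only. In each subset the 3 knockout libraries held less Pth1r than the 3 controls, by -0.70, -0.52 and -0.56 on the log2 scale in marrow, GFP-positive and GFP-negative bone. Its count spans all exons, including any that a shortened transcript keeps. Control marrow carried Cxcl12, a marrow stromal chemokine, at 21745 CPM, and control GFP-negative bone carried Col1a1, the main bone collagen, at 231871 CPM. Control GFP-positive bone, labelled bone cells, carried the cartilage collagen Col2a1 at 84692 CPM. These markers were shared between subsets. Col1a1 stood at 141372 CPM in control marrow and 36276 CPM in control GFP-positive bone. Control GFP-negative bone carried Col2a1 at 27926 CPM and Cxcl12 at 1145 CPM. Fold changes of knockout over control rose with transcript length (Spearman's rho 0.406, 0.437 and 0.444 across 15516 genes, which are not independent replicates). The length correction named below removes this trend from each library before the test. The median longest transcript was 3273.5 bases for the 32 genes and 3163 for all genes tested. Scaling by library totals alone moved the log2 fold changes of all genes by a median of 0.14 in marrow, -0.38 in GFP-positive and -0.24 in GFP-negative bone, so directions below are relative to the bulk of genes.

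In controls, the synthesis genes formed a steep gradient, lowest in marrow and highest in GFP-positive bone. The 18 synthesis enzymes are the genes of the mevalonate, squalene and sterol steps without Ggps1. They summed to 376.9 ± 17.7 CPM in marrow, 879.9 ± 11.98 CPM in GFP-negative bone and 2496 ± 187 CPM in GFP-positive bone (mean ± SD, n = 3). Of the 32 genes, 23 were higher and 7 lower in GFP-positive bone than in marrow (edgeR quasi-likelihood test, Benjamini-Hochberg (BH) adjusted p under 0.05), where 62.8% of all genes passed in either direction. GFP-negative bone against marrow gave 19 higher and 4 lower, with 39.3% of all genes called, and GFP-positive against GFP-negative bone gave 21 higher and 4 lower, with 40% called. Scaling by library totals alone turned the second of these to 15 higher and 7 lower. The 3 comparisons share libraries.

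**Figure D1:**
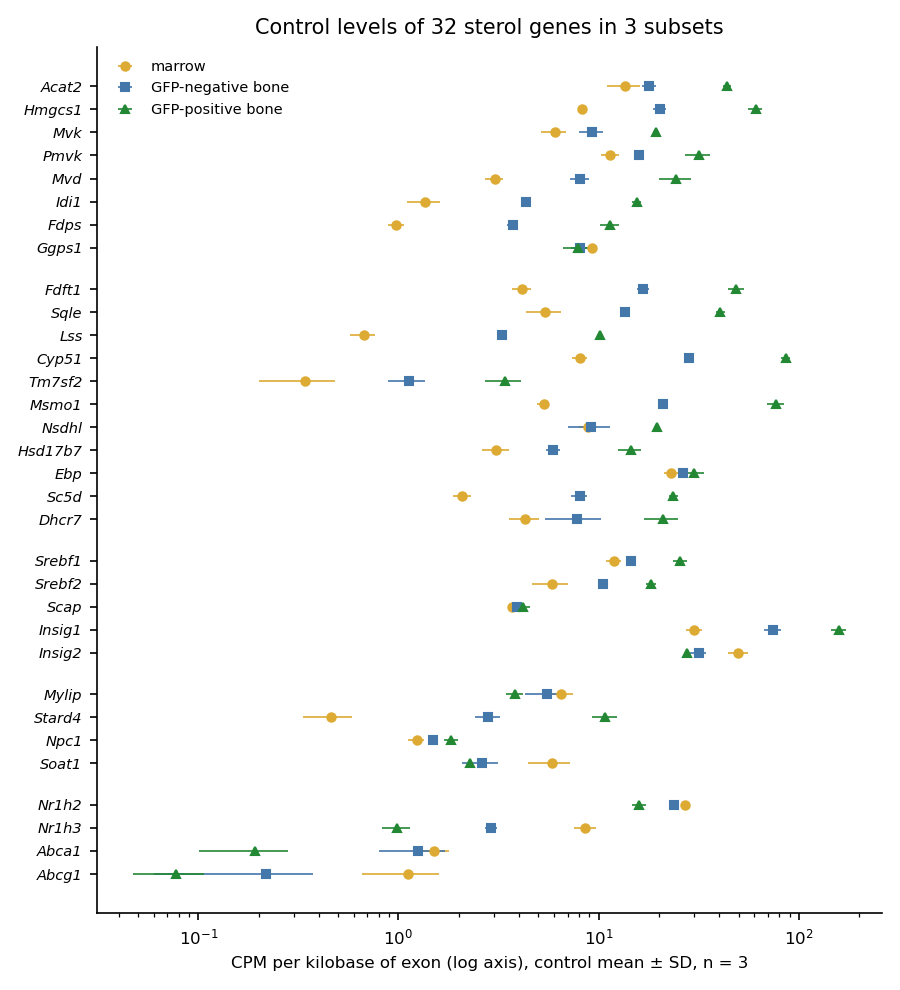
Control levels of the 32 genes in CPM per kilobase of exon on a log axis, as mean ± SD of 3 libraries in marrow (circles), GFP-negative bone (squares) and GFP-positive bone (triangles), with genes grouped by role from the mevalonate steps at the top to LXR and efflux at the bottom. Most synthesis genes run from marrow on the left to GFP-positive bone on the right, and the 4 LXR and efflux genes run the other way.

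Levels per kilobase of merged exons allow a rough comparison of the genes with each other. Merged exons can be much longer than the longest transcript, as for Msmo1 (6144 against 2969 bases) and Tm7sf2 (5593 against 3083 bases). Ranks of genes with near values therefore depend on the length used, and those below hold for merged exons. In control GFP-positive bone, Insig1, the sterol-sensing brake on SREBP, stood highest at 159 ± 14.2 CPM per kilobase, ahead of the C14 demethylase Cyp51 at 86.3 ± 4.39 and the C4 methyl oxidase Msmo1 at 77.1 ± 7.68. On this scale Cyp51 and Msmo1 did not differ beyond the sum of their SDs, which need not hold with transcript length. In control marrow the order was different: Insig2, another brake protein, led at 49.9 ± 5.62, followed by Insig1 at 30.0 ± 2.67 and Nr1h2 (LXR-beta) at 27.1 ± 0.539. The lowest levels in GFP-positive bone were those of the 2 exporters, Abca1 at 0.191 ± 0.0900 and Abcg1 at 0.0770 ± 0.0299 CPM per kilobase. In control marrow, Tm7sf2, a C14 sterol reductase, was lowest on this scale at 0.341 ± 0.139. Stard4, which carries sterol between membranes, was next at 0.461 ± 0.126, and the order of these 2 also depends on the length used.

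Between the control bone subsets, 17 of the 18 enzymes were higher in GFP-positive bone, where 18.2% of all genes were higher and 40% were called in either direction. The log2 differences ran from 0.18 (Ebp, adjusted p = 0.235, the enzyme that did not pass) to 1.88 (Msmo1), with a median of 1.57. Hmgcs1 differed by 1.59 ± 0.09, Sqle by 1.59 ± 0.11 and Lss by 1.62 ± 0.10 (± SE), and Mvk, Pmvk and Nsdhl were nearer 1, at 1.07, 0.99 and 1.10. Summed levels of 6 cartilage markers had a log2 ratio of 1.63 between the same subsets. Those of the osteoblast, marrow stromal and fat cell markers had ratios of -2.52, -2.12 and -2.75. The stromal marker Foxc1 went against its sum, with means of 199 CPM in GFP-positive and 109 CPM in GFP-negative bone. It was the largest part of the stromal sum in GFP-positive bone, and the other stromal means were lower there. The part of these markers' cell types in the step was not tested. In bulk RNA from sorted cells, fewer cells of a type and less RNA per cell cannot be told apart.

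The export side ran the other way in controls. Abca1, which loads cholesterol onto apolipoprotein A-I, held 18.9, 14.6 and 13.3 CPM in the marrow libraries, 9.48, 11.2 and 18.3 CPM in GFP-negative bone and 2.43, 0.908 and 2.60 CPM in GFP-positive bone. Nr1h3, which encodes LXR-alpha, held 24.6, 19.2 and 21.1 CPM, 7.91, 6.98 and 7.01 CPM and 2.70, 2.72 and 2.02 CPM in the same order. All 3 marrow libraries were above all 3 GFP-positive libraries for both genes. The log2 difference of GFP-positive bone over marrow was -3.00 ± 0.28 for Abca1, -3.11 ± 0.20 for Nr1h3, -3.90 ± 0.48 for Abcg1 and -0.77 ± 0.09 for Nr1h2, and all 4 passed the test (largest adjusted p = 9.87e-07, that of Abcg1). In this comparison 62.8% of all genes passed in either direction. Soat1, which esterifies cholesterol for storage, Insig2 and Mylip were also lower in GFP-positive bone than in marrow, by 2.57-, 1.81- and 1.71-fold.

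In the knockout, 16 of the 18 synthesis enzymes fell and none rose in GFP-negative bone, while 9 rose and 4 fell in GFP-positive bone. The 18 enzymes summed to 260.1 ± 14.2 CPM in knockout marrow, 502 ± 33.7 CPM in knockout GFP-negative bone and 3673 ± 320 CPM in knockout GFP-positive bone. On this TMM scale each knockout library lay below each control library in marrow and GFP-negative bone and above each in GFP-positive bone. As a share of all counts the GFP-positive groups overlapped, at 0.2551, 0.2958 and 0.2593% in controls and 0.2717, 0.3065 and 0.3377% in knockouts, so the separation there depends on the scaling. Hmgcs1 alone went from 279.6 ± 22.5 to 866 ± 60.7 CPM in GFP-positive bone, a large part of the gain in the sum. In marrow 9 of the 32 genes rose and 12 fell, a share of 65.6% beside 47.9% of all genes. In GFP-negative bone 3 rose and 22 fell, 78.1% beside 47.1%. In GFP-positive bone 16 rose and 6 fell, 68.8% beside 51.3%, and with scaling by library totals alone the split there was 5 higher and 9 lower. After the length correction it was 15 higher and 2 lower. Median log2 fold changes of the 32 genes were -0.22, -0.71 and 0.36 in marrow, GFP-negative and GFP-positive bone, against -0.04, -0.07 and 0.03 over all genes. The groups' libraries did not overlap for 75.0, 78.1 and 65.6% of the 32 genes, against 54.7, 54.4 and 57.6% of all genes.

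**Figure D2:**
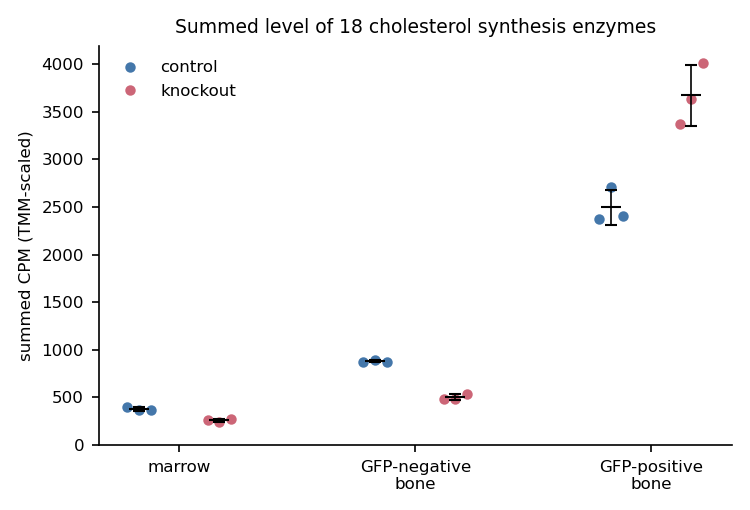
Summed level of the 18 synthesis enzymes in each library, in TMM-scaled CPM, with control libraries in blue, knockout libraries in red, and the mean ± SD of 3 as black bars. On this scale the knockout sums are lower than the control sums in marrow and GFP-negative bone and higher in GFP-positive bone, where the groups overlap as shares of all counts.

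Cell type markers moved along with these groups. The 6 cartilage markers, all detected in every group, summed to 93110 to 115800 CPM in control and 280200 to 310700 CPM in knockout GFP-positive bone. Col2a1 made up most of this sum, and the 6 did not move together there, since Matn3 was at 8698 CPM in controls and 6773 CPM in knockouts and Snorc at 1202 and 1317 CPM (means). In GFP-negative bone they summed to 28260 to 38540 CPM in controls and 22040 to 29660 CPM in knockouts. In marrow the 7 osteoblast markers summed to 125000 to 184700 CPM in controls and 54300 to 73730 CPM in knockouts, while the 6 marrow stromal markers went from 22710 to 31510 CPM up to 37660 to 44950 CPM and the 5 fat cell markers from 4082 to 5146 CPM up to 7969 to 10320 CPM. In the bone subsets the stromal sum was 317.8 to 361.1 CPM in control and 660.3 to 880.9 CPM in knockout GFP-positive bone, and 1177 to 1617 CPM and 3763 to 4078 CPM in GFP-negative bone. The fat cell sum was 34.81 to 38.83 CPM and 103.1 to 159.8 CPM in GFP-positive bone, and 225.8 to 265.8 CPM and 630.6 to 795.7 CPM in GFP-negative bone. Lpl and Adipoq made up most of it, at means of 2746 and 1745 CPM in control marrow. Plin1, Cidec and Plin4 were at 5.40, 5.29 and 2.12 CPM there, and at 69.6, 19.4 and 10.7 CPM in knockout marrow. Adipoq counts in the stromal sum too, so the 2 sums are not independent. Osteoblast sums had log2 ratios of knockout to control of 0.38 in GFP-positive and 0.65 in GFP-negative bone. Col1a1 made up most of these sums, and the 7 markers did not move together. Mean Bglap was 672 CPM in control and 356 CPM in knockout GFP-positive bone, and 6395 and 5488 CPM in GFP-negative bone. Bglap2 was also lower in both, and Alpl was lower in GFP-negative bone, while the other means were higher. The 7 macrophage and osteoclast markers had a log2 ratio of -0.99 in marrow. Mmp9 and Ctsk made up most of that sum, with means of 399 and 242 CPM in controls and 159 and 165 CPM in knockouts. The SD of Mmp9 in knockout marrow was 163 CPM. Cd68 and Adgre1 had higher means in knockout marrow (0.396 to 0.854 and 0.0392 to 0.0762 CPM), and the other means were lower. In marrow, knockout replicate 2 carried 209.6 CPM of 3 megakaryocyte markers, against 1.93 to 4.19 CPM in the other marrow libraries. Without it, 8 of the 32 genes rose and 12 fell in marrow. The part of these cell types in the sterol results was not tested.

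**Figure D3:**
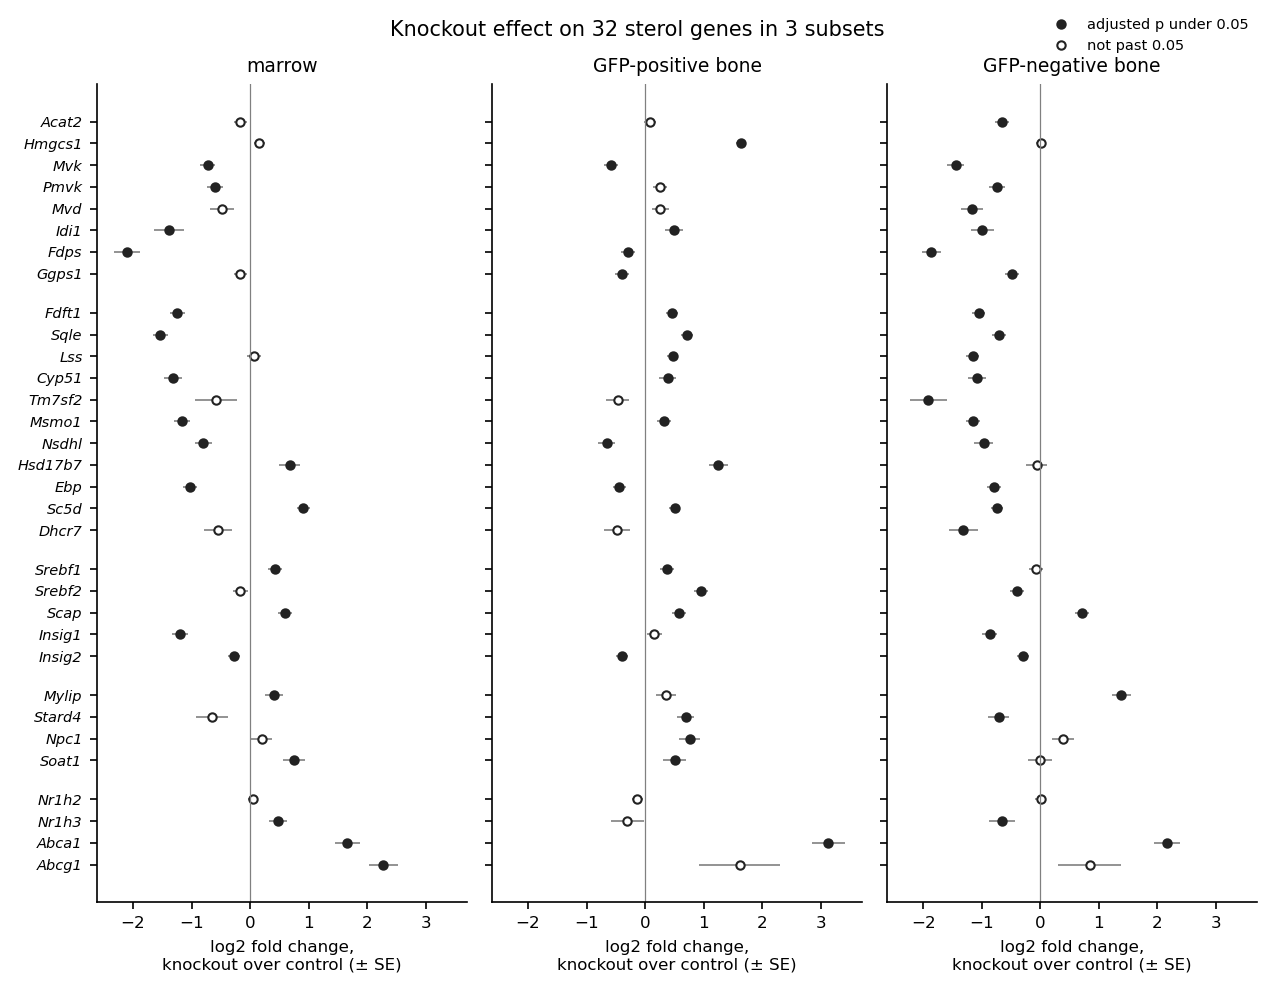
Log2 fold change of knockout over control ± SE for each of the 32 genes in the 3 subsets, with filled points for adjusted p under 0.05 and open points for the rest. The enzymes lie mostly left of 0 in marrow and GFP-negative bone, and 16 genes lie right of 0 as filled points in GFP-positive bone, a direction that turns for Msmo1 and Srebf1 when library totals alone are used for scaling.

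The mevalonate steps turn acetyl-CoA into farnesyl diphosphate. Of their 8 genes, 4 fell in marrow, 7 fell in GFP-negative bone, and 2 rose and 3 fell in GFP-positive bone, which is 50, 87.5 and 62.5% called beside 47.9, 47.1 and 51.3% of all genes. After the length correction the GFP-positive split was 5 higher and 1 lower. Hmgcs1, the synthase that makes HMG-CoA, held 258, 303 and 278 CPM in the control and 842, 936 and 821 CPM in the knockout libraries of GFP-positive bone. In marrow it held 39.9, 36.2 and 37.8 CPM in controls and 43.5, 42.2 and 41.5 CPM in knockouts, and in GFP-negative bone 88.0, 90.4 and 101 CPM and 97.5, 96.9 and 87.1 CPM. The GFP-positive groups stood far apart, and the GFP-negative groups overlapped. The rise in GFP-positive bone was 3.10-fold (log2 1.63 ± 0.09, edgeR adjusted p = 9.80e-11). In marrow and GFP-negative bone the log2 fold changes were 0.16 ± 0.09 and 0.01 ± 0.09 (adjusted p = 0.159 and 0.937), the marrow value passing with the length correction and with library totals alone (log2 0.24 and 0.29, adjusted p = 0.0427 and 0.0409). Among the enzymes, Hmgcs1 had the largest rise in GFP-positive bone and the smallest change in GFP-negative bone.

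Fdps, which makes farnesyl diphosphate, fell in all 3 subsets, but unequally. In marrow it held 3.93, 4.53 and 3.86 CPM in controls and 0.644, 1.20 and 1.08 CPM in knockouts. In GFP-negative bone the values were 15.4, 14.9 and 16.7 CPM and 4.29, 4.02 and 4.65 CPM, and in GFP-positive bone 47.9, 53.3 and 42.8 CPM and 41.6, 40.2 and 35.0 CPM. The groups did not overlap in any subset. The falls were 4.30-, 3.63- and 1.23-fold in marrow, GFP-negative and GFP-positive bone (adjusted p = 4.85e-07, 4.60e-08 and 0.0436). The GFP-positive call was lost without any of 5 libraries taken out in turn (log2 -0.32 to -0.22, adjusted p 0.0652 to 0.199), with DESeq2 (adjusted p = 0.0826) and with the correction for transcript length (log2 -0.08, adjusted p = 0.639). Fdps shares exon sequence on its strand with the gene model Gm43738, so reads there may have been assigned to either.

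Mvk, mevalonate kinase, also fell in all 3 subsets. Its levels were 18.8, 15.1 and 14.6 CPM against 9.95, 9.04 and 10.4 CPM in marrow, 26.0, 27.1 and 20.9 CPM against 8.22, 9.17 and 9.89 CPM in GFP-negative bone and 51.0, 54.1 and 50.8 CPM against 36.8, 32.1 and 35.0 CPM in GFP-positive bone, control against knockout. Every knockout library was below every control library of its subset. The log2 fold changes were -0.73 ± 0.13, -1.45 ± 0.14 and -0.59 ± 0.12 (adjusted p = 1.78e-04, 1.29e-07 and 3.74e-04). After the length correction the fall in GFP-positive bone was -0.27 and did not pass (adjusted p = 0.0734).

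Mvd, which makes isopentenyl diphosphate, and Acat2, which makes acetoacetyl-CoA at the start of the route, passed in GFP-negative bone and not in the other 2 subsets. Mvd held 14.3, 13.8 and 16.8 CPM in controls and 5.06, 8.14 and 6.78 CPM in knockouts there, and Acat2 held 49.5, 42.2 and 45.1 CPM and 27.7, 29.0 and 30.1 CPM. The falls were 2.24-fold for Mvd and 1.58-fold for Acat2 (adjusted p = 3.47e-05 and 1.10e-04). In GFP-positive bone the log2 fold changes were 0.26 ± 0.14 and 0.09 ± 0.11 (adjusted p = 0.141 and 0.534). With the length correction both were called higher there (log2 0.66 and 0.42, adjusted p = 8.70e-04 and 0.00347), and DESeq2 called Mvd lower in marrow (log2 -0.45, adjusted p = 0.0494). Of the remaining members, Pmvk, phosphomevalonate kinase, fell in marrow and GFP-negative bone (log2 -0.61 and -0.74), a pair of calls that the length correction ended (adjusted p = 0.202 and 0.105), while it called Pmvk higher in GFP-positive bone (log2 0.73, adjusted p = 6.35e-05). Idi1, the isomerase that makes dimethylallyl diphosphate, fell in those subsets (log2 -1.38 ± 0.25 and -0.99 ± 0.19) and rose in GFP-positive bone (log2 0.49 ± 0.15), where the call was lost without knockout replicate 3 (log2 0.29, adjusted p = 0.101). Ggps1, which diverts farnesyl diphosphate to protein prenylation, fell in both bone subsets (log2 -0.40 in GFP-positive, -0.48 in GFP-negative), the former call being lost without control replicate 3 (log2 -0.25, adjusted p = 0.0987).

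The squalene and sterol steps turn farnesyl diphosphate into cholesterol. Of 11 genes, 10 fell in GFP-negative bone and none rose. In marrow 6 fell and 2 rose, and in GFP-positive bone 7 rose and 2 fell. These shares of 90.9, 72.7 and 81.8% stand beside 47.1, 47.9 and 51.3% of all genes. After the length correction 4 were higher and 1 lower in GFP-positive bone. Sqle, squalene epoxidase, a rate-limiting step of the route, showed both directions most clearly. Its libraries held 27.3, 25.8 and 36.8 CPM in control and 9.95, 9.93 and 11.1 CPM in knockout marrow. In GFP-negative bone the values were 75.2, 71.7 and 77.5 CPM and 44.0, 45.5 and 48.2 CPM, and in GFP-positive bone 215, 238 and 222 CPM and 335, 366 and 409 CPM. No subset showed overlap. Sqle fell 2.90-fold in marrow and 1.63-fold in GFP-negative bone and rose 1.64-fold in GFP-positive bone (adjusted p = 2.38e-08, 4.35e-05 and 1.62e-05). The directions and calls held with library totals alone (log2 -1.40, -0.95 and 0.34).

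Fdft1, squalene synthase, moved the same way. Control and knockout libraries held 17.5, 19.5 and 15.6 CPM and 8.70, 6.87 and 6.48 CPM in marrow. In GFP-negative bone they held 69.2, 75.7 and 66.1 CPM and 32.9, 32.6 and 36.2 CPM, and in GFP-positive bone 196, 229 and 194 CPM and 269, 277 and 302 CPM. The 3 pairs of groups did not overlap. The log2 fold changes were -1.24 ± 0.13, -1.05 ± 0.11 and 0.45 ± 0.10 (adjusted p = 2.72e-07, 3.63e-07 and 0.00108). With library totals alone, the GFP-positive value was 0.07 and did not pass (adjusted p = 0.598). Fdft1 overlaps exons of Ctsb on the opposite strand, and whether counting used strand is not stated in the labels or headers.

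Msmo1 and Cyp51, which strip methyl groups from lanosterol and its products, fell in marrow and GFP-negative bone and rose in GFP-positive bone. Msmo1 held 34.5, 30.2 and 33.3 CPM in control and 15.3, 14.8 and 13.5 CPM in knockout marrow. In GFP-negative bone it held 123, 126 and 136 CPM and 55.8, 51.5 and 67.5 CPM, and in GFP-positive bone 449, 528 and 444 CPM and 517, 547 and 706 CPM. The GFP-positive groups overlapped, and 1 knockout library stood above the rest. The falls were 2.24- and 2.21-fold (adjusted p = 8.92e-07 and 4.34e-07), and the rise in GFP-positive bone was 1.25-fold (adjusted p = 0.0282). That rise did not pass without control replicate 1, control replicate 3 or knockout replicate 3 (log2 0.17 to 0.29), and it turned to -0.06 with library totals alone. For Cyp51 the log2 fold changes were -1.32 ± 0.16, -1.08 ± 0.15 and 0.38 ± 0.14, and the GFP-positive call was lost without any of 4 libraries taken out in turn (log2 0.23 to 0.39, adjusted p 0.057 to 0.2).

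Lss, which closes the ring to form lanosterol, and Sc5d, which sets a late double bond, parted from this pattern in marrow. Lss held 8.16, 7.44 and 6.10 CPM in control and 8.21, 6.50 and 8.13 CPM in knockout marrow, and the groups overlapped. In GFP-negative bone it held 36.6, 35.0 and 35.3 CPM and 15.9, 15.9 and 16.3 CPM, and in GFP-positive bone 109, 108 and 113 CPM and 140.4, 153 and 164 CPM, without overlap. The log2 fold changes were 0.07 ± 0.12, -1.15 ± 0.11 and 0.47 ± 0.09 (adjusted p = 0.695, 1.05e-07 and 3.51e-04). Lss has a long transcript of 6992 bases, and the length correction turned its values in marrow and GFP-positive bone to -0.60 and -0.38. Both were then called lower (adjusted p = 0.00106 and 0.00485), so the departure of Lss in marrow and its rise in GFP-positive bone depend on this correction. Sc5d rose in marrow (log2 0.91 ± 0.11), fell in GFP-negative bone (log2 -0.74 ± 0.10) and rose in GFP-positive bone (log2 0.50 ± 0.09), where the call ended with the length correction (log2 0.14, adjusted p = 0.261).

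Ebp, the sterol isomerase, and Nsdhl, the C4 decarboxylating dehydrogenase, fell in all 3 subsets. Both are X-linked. Ebp held 55.9, 55.5 and 48.5 CPM in control and 25.5, 22.5 and 30.3 CPM in knockout marrow, 63.6, 62.8 and 57.5 CPM and 34.4, 32.3 and 40.0 CPM in GFP-negative bone, and 61.5, 76.7 and 70.6 CPM and 56.1, 48.5 and 49.1 CPM in GFP-positive bone. No knockout library reached a control library of its subset. The log2 fold changes were -1.03 ± 0.12, -0.79 ± 0.12 and -0.44 ± 0.12 for Ebp and -0.80 ± 0.15, -0.97 ± 0.16 and -0.66 ± 0.14 for Nsdhl (largest adjusted p = 0.00412, Ebp in GFP-positive bone). In GFP-positive bone neither passed after the length correction (log2 -0.03 and -0.31). Hsd17b7, the C4 ketoreductase, rose in marrow and GFP-positive bone (log2 0.68 ± 0.18 and 1.25 ± 0.16), the marrow call ending with the length correction (log2 0.44, adjusted p = 0.0604), and was -0.06 ± 0.18 in GFP-negative bone, where it did not pass. Tm7sf2 and Dhcr7, the C7 sterol reductase, passed in GFP-negative bone (log2 -1.91 ± 0.31 and -1.31 ± 0.25). Their values in GFP-positive bone were -0.47 ± 0.20 and -0.48 ± 0.22 (adjusted p = 0.0564 and 0.0793), and both passed with library totals alone (log2 -0.85 and -0.87).

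**Figure D4:**
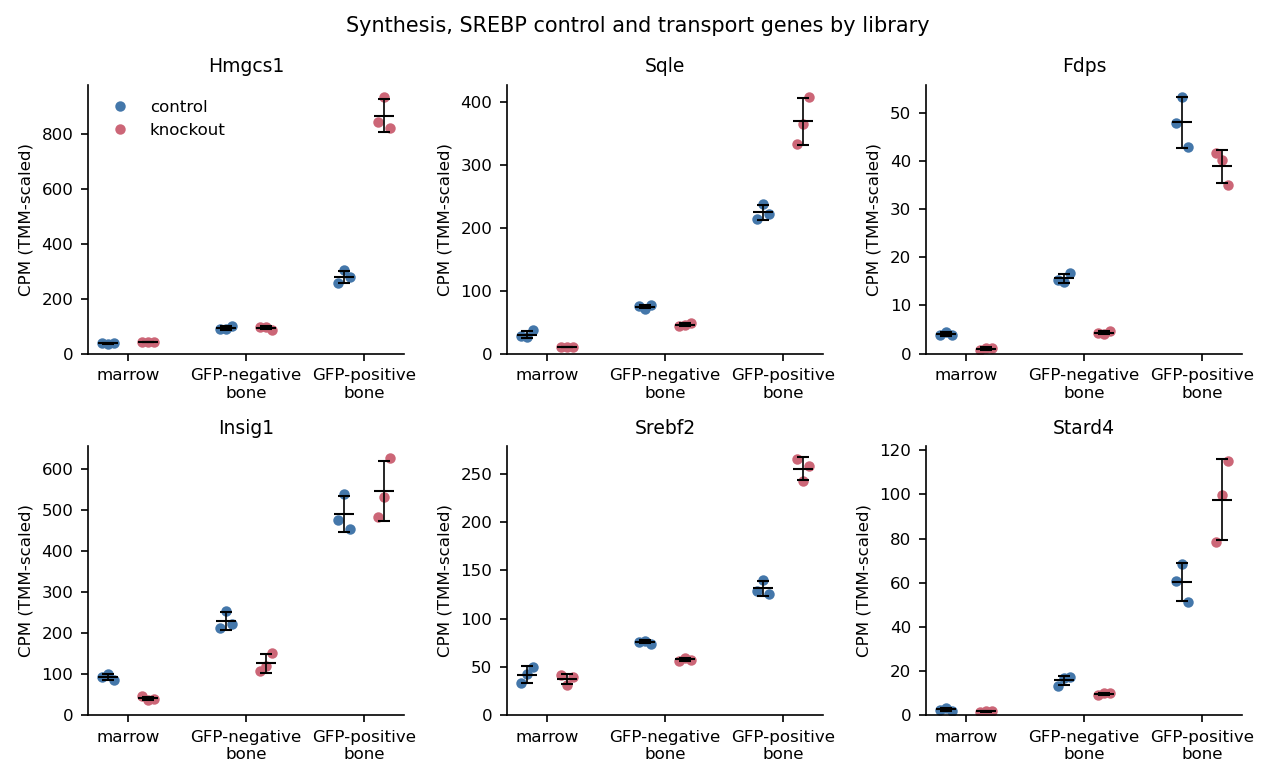
Level in each library, in TMM-scaled CPM, of Hmgcs1, Sqle, Fdps, Insig1, Srebf2 and Stard4, with control libraries in blue, knockout libraries in red and black bars for mean ± SD of 3. Hmgcs1, Sqle, Srebf2 and Stard4 are higher in knockout than in control GFP-positive bone without overlap, and Fdps is lower.

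Among the SREBP control genes, Srebf2, which encodes SREBP-2 and is a target of its own product, rose in GFP-positive bone. Its libraries held 128, 140.1 and 126 CPM in controls and 266, 243 and 258 CPM in knockouts there. In GFP-negative bone they held 76.2, 77.1 and 74.2 CPM and 56.4, 59.7 and 56.9 CPM, and in marrow 33.1, 42.2 and 50.3 CPM and 41.1, 30.9 and 39.7 CPM. Only the marrow groups overlapped. The change was 1.95-fold up in GFP-positive bone and 1.32-fold down in GFP-negative bone (log2 0.96 ± 0.12 and -0.40 ± 0.12, adjusted p = 1.93e-06 and 0.0128), and -0.17 ± 0.12 in marrow (adjusted p = 0.289), where the length correction gave a called fall (log2 -0.52, adjusted p = 0.00279). The fall in GFP-negative bone did not pass with DESeq2 (adjusted p = 0.0627). Srebf1, which encodes the SREBP forms that favour fatty acid genes, held 72.9, 67.4 and 61.5 CPM in control and 94.6, 85.8 and 91.7 CPM in knockout marrow and 131, 150.003 and 150.5 CPM and 223, 187 and 149 CPM in GFP-positive bone. It rose in both (log2 0.43 ± 0.12 and 0.38 ± 0.12), but the GFP-positive groups overlapped, and the value was -0.01 with library totals alone. Both calls ended with the length correction (log2 0.28 and 0.19, adjusted p = 0.0811 and 0.232). The GFP-positive call was also lost without control replicate 1 or knockout replicate 1 (log2 0.31 and 0.25).

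Insig1, which holds SCAP in the endoplasmic reticulum and is itself a target of SREBP-2, held 92.7, 101 and 84.8 CPM in control and 45.3, 36.1 and 40.3 CPM in knockout marrow. In GFP-negative bone the values were 212, 255 and 222 CPM and 106, 119.8 and 153 CPM, and in GFP-positive bone 478, 539 and 455 CPM and 483, 532 and 627 CPM. Knockout libraries were lower without overlap in marrow and GFP-negative bone, and the GFP-positive groups overlapped. The falls were 2.29- and 1.82-fold (adjusted p = 9.88e-07 and 2.52e-05), and the GFP-positive value was 0.16 ± 0.13 (log2, adjusted p = 0.325). With the length correction that value was 0.43 and passed (adjusted p = 0.0144).

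Scap and Insig2 moved the same way in every subset, and in opposite directions. Scap, the escort of SREBP, held 28.3, 26.6 and 27.8 CPM in control and 40.1, 36.9 and 48.0 CPM in knockout marrow. In GFP-negative bone it held 29.4, 29.5 and 28.6 CPM and 45.8, 42.9 and 55.4 CPM, and in GFP-positive bone 33.3, 31.7 and 28.4 CPM and 47.7, 42.4 and 50.02 CPM. All knockout libraries were above all control libraries of their subset. The rises were 1.51-, 1.64- and 1.5-fold (adjusted p = 3.34e-04, 5.95e-05 and 3.34e-04), the last not passing with library totals alone (log2 0.20, adjusted p = 0.164). Insig2 held 94.1, 96.6 and 97.2 CPM in control and 77.9, 73.5 and 66.4 CPM in knockout GFP-positive bone. Its falls were small (log2 -0.27 ± 0.10, -0.29 ± 0.10 and -0.40 ± 0.10 in marrow, GFP-negative and GFP-positive bone, largest adjusted p = 0.0318). None passed after the length correction (log2 -0.07, -0.07 and -0.13), the marrow call was lost without any of 4 libraries in turn (log2 -0.24 to -0.21), and the GFP-negative call without any of 3 (log2 -0.26 to -0.21).

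Of the 4 uptake, transport and storage genes, 2 rose in marrow, 3 rose in GFP-positive bone, and 1 rose and 1 fell in GFP-negative bone. These are 50, 75 and 50% called, beside 47.9, 51.3 and 47.1% of all genes. After the length correction 1 rose and 1 fell in marrow, 1 rose in GFP-positive bone, and 1 rose and 2 fell in GFP-negative bone. Mylip, the ubiquitin ligase that LXR induces and that marks lipoprotein receptors for breakdown, held 14.0, 17.4 and 22.0 CPM in control and 49.8, 44.6 and 44.8 CPM in knockout GFP-negative bone. In marrow it held 23.7, 21.7 and 17.5 CPM and 23.9, 30.0 and 29.8 CPM, and in GFP-positive bone 12.8, 10.9 and 13.2 CPM and 18, 15.6 and 12.9 CPM. The GFP-negative groups stood well apart and the GFP-positive groups overlapped. Mylip rose 2.60-fold in GFP-negative bone (log2 1.38 ± 0.16, adjusted p = 1.33e-06) and 1.32-fold in marrow (adjusted p = 0.0399), where the call was lost without any of 4 libraries in turn (log2 0.30 to 0.43). In GFP-positive bone its log2 fold change was 0.35 ± 0.17 (adjusted p = 0.10), which passed with the length correction (log2 0.55, adjusted p = 0.0142).

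Stard4, a sterol carrier under SREBP-2 control, held 60.9, 68.6 and 51.5 CPM in control and 78.3, 99.6 and 115 CPM in knockout GFP-positive bone. In GFP-negative bone it held 13.1, 16.7 and 17.2 CPM and 8.89, 9.998 and 9.89 CPM, and in marrow 2.43, 3.34 and 1.95 CPM and 1.55, 1.64 and 1.79 CPM. It rose 1.61-fold in GFP-positive and fell 1.64-fold in GFP-negative bone (adjusted p = 4.84e-04 and 0.00271), the rise not passing with library totals alone (log2 0.31) or the length correction (log2 0.22). In marrow it did not pass (log2 -0.65 ± 0.27, adjusted p = 0.0530), but DESeq2 and the length correction called it lower (log2 -0.62 and -1.01, adjusted p = 0.0255 and 0.00538). Npc1, which moves cholesterol out of lysosomes, held 17.9, 21.1 and 19.9 CPM in control and 25.7, 34.5 and 40.1 CPM in knockout GFP-positive bone, without overlap. It rose 1.69-fold there (log2 0.76 ± 0.18, adjusted p = 0.00133), a call that ended with the length correction (log2 0.12) and with library totals alone (log2 0.38). Soat1 held 72.8, 51.4 and 47.1 CPM in control and 85.3, 98.4 and 105 CPM in knockout marrow, a rise of 1.68-fold (adjusted p = 0.00264). It also rose in GFP-positive bone (log2 0.50 ± 0.20), a call lost without any of 5 libraries in turn (log2 0.29 to 0.54). Soat1 has a transcript of 8371 bases, and the length correction turned its values to -0.04 in marrow, -0.48 in GFP-positive and -0.86 in GFP-negative bone.

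On the efflux side, Abca1 rose in all 3 subsets. The marrow libraries held 18.9, 14.6 and 13.3 CPM in controls and 47.1, 49.0 and 52.7 CPM in knockouts. The GFP-negative libraries held 9.48, 11.2 and 18.3 CPM and 61.0, 54.0 and 59.1 CPM, and the GFP-positive libraries 2.43, 0.908 and 2.60 CPM and 15.1, 20.5 and 15.7 CPM. The groups did not overlap in any subset, and knockout GFP-positive bone reached the level of control marrow. The rises were 3.16-, 4.47- and 8.75-fold in marrow, GFP-negative and GFP-positive bone (log2 1.66 ± 0.21, 2.16 ± 0.22 and 3.13 ± 0.28, adjusted p = 3.06e-06, 2.56e-07 and 5.54e-08). Abca1 has a transcript of 10262 bases, and the length correction lowered the rises to 0.81, 1.25 and 2.07 on the log2 scale, all still past 0.05 (adjusted p = 0.00481, 2.10e-04 and 1.73e-05).

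Abcg1, which exports cholesterol to high-density lipoprotein, held 6.74, 3.42 and 3.53 CPM in control and 19.0, 19.8 and 28.8 CPM in knockout marrow, a rise of 4.83-fold (log2 2.27 ± 0.25, adjusted p = 7.18e-07). In GFP-positive bone it stayed low, at 0.190, 0.316 and 0.433 CPM and 1.05, 0.679 and 1.15 CPM, and in GFP-negative bone at 1.57, 0.787 and 0.30 CPM and 1.24, 1.91 and 1.55 CPM. The log2 fold changes there were 1.61 ± 0.70 and 0.84 ± 0.54 and did not pass (adjusted p = 0.0614 and 0.219). The GFP-positive groups did not overlap, and DESeq2 called that rise (log2 1.66, adjusted p = 0.00376). Nr1h3 held 30.9, 27.1 and 32.5 CPM in knockout marrow against 24.6, 19.2 and 21.1 CPM in controls, and 3.2, 4.54 and 6.46 CPM in knockout GFP-negative bone against 7.91, 6.98 and 7.01 CPM. It rose in the former (log2 0.48 ± 0.16, adjusted p = 0.0175) and fell in the latter (log2 -0.65 ± 0.22, adjusted p = 0.0217), and each call was lost without any of 3 libraries in turn (log2 0.40 to 0.46 and -0.63 to -0.41). The fall of Nr1h3 in GFP-negative bone also did not pass after the length correction. Nr1h2, the LXR of most tissues, passed in none of the 3 subsets (log2 0.05 ± 0.09, 0.01 ± 0.09 and -0.14 ± 0.10 in marrow, GFP-negative and GFP-positive bone). With the length correction it was called higher in all 3 (log2 0.34, 0.35 and 0.24, adjusted p = 0.00549, 0.00479 and 0.0435), and with library totals alone it was called lower in GFP-positive bone (log2 -0.52, adjusted p = 2.84e-04).

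**Figure D5:**
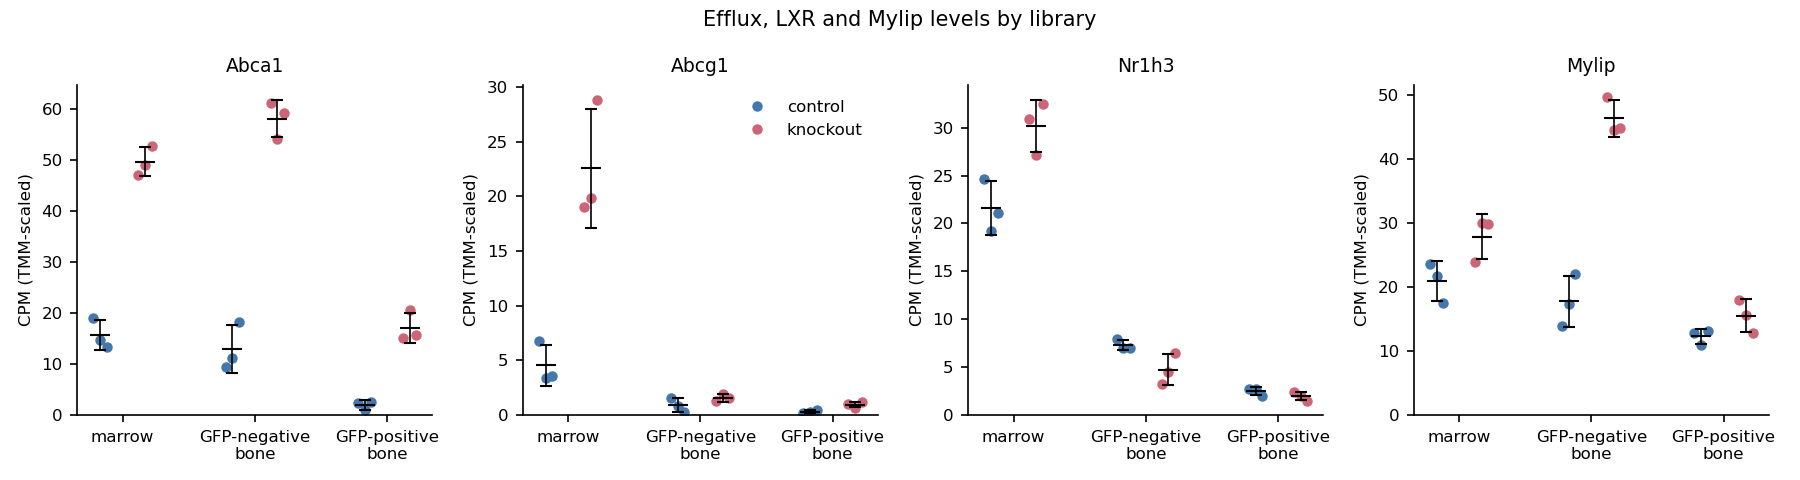
Level in each library, in TMM-scaled CPM, of Abca1, Abcg1, Nr1h3 and Mylip, with control libraries in blue, knockout libraries in red and black bars for mean ± SD of 3. Abca1 has no overlap between knockout and control libraries in any subset and is higher in knockouts, and the rise of Abcg1 past the threshold is in marrow.

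Sorted by their calls in the 3 subsets, 2 genes rose in all (Abca1 and Scap) and 5 fell in all (Ebp, Fdps, Insig2, Mvk and Nsdhl). A set of 5 fell in marrow and GFP-negative bone and rose in GFP-positive bone (Cyp51, Fdft1, Idi1, Msmo1 and Sqle). In all, 9 genes rose in GFP-positive and fell in GFP-negative bone, namely these 5 with Lss, Sc5d, Srebf2 and Stard4. With the length correction Lss was called lower in GFP-positive bone, and the rises there of Cyp51, Sc5d and Stard4 did not pass. Nr1h2 was called in none. Of all genes tested, 12.5% rose in all 3 subsets, 14% fell in all 3, 0.29% fell in marrow and GFP-negative bone and rose in GFP-positive bone, 0.741% rose in GFP-positive and fell in GFP-negative bone, and 28.2% were called in none. The list was chosen with these contrasts known. With library totals alone, the genes higher in GFP-positive bone were Abca1, Hmgcs1, Hsd17b7, Sqle and Srebf2.

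Whether the knockout effect itself differed between subsets was tested as an interaction in the same model. The effect was more positive in GFP-positive than in GFP-negative bone for 18 of the 32 genes and more negative for 1, Mylip, where 6.08% of all genes passed in either direction. Against marrow, the GFP-positive effect was more positive for 14 genes and more negative for none, where 18.4% of all genes passed. The GFP-negative effect was more positive than that of marrow for 2 genes and more negative for 4, where 7.79% passed. With the replicate block, which takes replicate numbers to pair subsets within a genotype, 9 were more negative. With library totals alone the 3 splits were 16 and 1, 9 and 7, and 0 and 16, the last 2 changing most. These comparisons share libraries with each other.

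Of the 18 enzymes, 15 passed between the bone subsets, all with a more positive effect in GFP-positive bone, where 6.08% of all genes passed in either direction. The differences ran from 0.31 (Nsdhl) to 1.63 (Lss), with a median of 1.42 (log2). Hmgcs1 differed by 1.62 ± 0.12, Fdps by 1.56 ± 0.20, Sqle by 1.42 ± 0.16, Mvk by 0.86 ± 0.18 and Acat2 by 0.74 ± 0.16 (adjusted p = 9.87e-07, 7.75e-05, 1.20e-05, 0.00754 and 0.00728). Nsdhl, Ebp and Dhcr7 did not pass (adjusted p = 0.462, 0.268 and 0.164). Scap differed by -0.13 ± 0.17, Insig2 by -0.11 ± 0.14 and Ggps1 by 0.09 ± 0.17, and none of these passed. Among genes past 0.05, Sc5d and Lss had the most negative differences of GFP-negative bone minus marrow, at -1.65 ± 0.15 and -1.22 ± 0.16 (adjusted p = 5.46e-06 and 1.17e-04). Abca1 rose more in GFP-positive bone than in marrow, by 1.47 ± 0.36 (adjusted p = 0.00838).

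Further genes of the pathway, from lists that exclude the 32, moved less evenly. The alternative settings were not examined for single genes of these lists, so their dependence on transcript length or scaling is not known. Of 24 other sterol synthesis and isoprenoid genes, 23 were measured, and 5 rose and 9 fell in marrow, 5 rose and 12 fell in GFP-positive bone, and 2 rose and 11 fell in GFP-negative bone. These are 60.9, 73.9 and 56.5% called, beside 47.9, 51.3 and 47.1% of all genes. Acly, which supplies cytosolic acetyl-CoA, went from 283 ± 20.9 to 534 ± 3.09 CPM in GFP-positive bone (log2 0.91 ± 0.08, adjusted p = 4.52e-08) and was -0.06 ± 0.08 in GFP-negative bone (adjusted p = 0.608). Cyb5r3, an electron donor for sterol oxidation, fell in marrow (log2 -0.96 ± 0.11) and rose in GFP-negative and GFP-positive bone (log2 0.26 ± 0.10 and 0.28 ± 0.10).

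Of 16 other genes of SREBP processing and protein degradation, 3 rose and 4 fell in marrow, 4 and 4 in GFP-positive bone, and 3 and 7 in GFP-negative bone. These shares of 43.8, 50 and 62.5% are near those of all genes in marrow and GFP-positive bone (47.9 and 51.3%) and stand beside 47.1% in GFP-negative bone. Tmem97, a sterol-regulated membrane protein that binds NPC1, went from 58.8 ± 9.44 to 17.6 ± 0.223 CPM in marrow, from 143 ± 5.49 to 46.8 ± 4.87 CPM in GFP-negative bone and from 299 ± 10.04 to 142 ± 20.5 CPM in GFP-positive bone. It fell in all 3 (log2 -1.73 ± 0.12, -1.61 ± 0.12 and -1.08 ± 0.11, largest adjusted p = 2.39e-07). Mbtps1, the first protease that cuts SREBP in the Golgi, rose in all 3 (log2 0.39 ± 0.10, 0.67 ± 0.10 and 0.71 ± 0.10). Aup1, which helps the degradation of sterol-sensing enzymes, fell in all 3 (log2 -0.31, -0.45 and -0.65), and Ufd1, of the same route, fell in both bone subsets (log2 -0.61 in GFP-negative, -0.71 in GFP-positive).

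Of 33 other uptake, transport, storage and efflux genes, 8 rose and 10 fell in marrow, 8 and 7 in GFP-positive bone, and 7 and 7 in GFP-negative bone. These shares of 54.5, 45.5 and 42.4% are near those of all genes (47.9, 51.3 and 47.1%). Lrp1, a large endocytic lipoprotein receptor, went from 93.0 ± 15 to 319 ± 95.5 CPM in marrow, from 73.8 ± 3.26 to 217 ± 41.8 CPM in GFP-negative bone and from 42.7 ± 7.20 to 199 ± 13.9 CPM in GFP-positive bone, and it rose in all 3 (log2 1.78 ± 0.18, 1.55 ± 0.19 and 2.22 ± 0.19). These values of Lrp1 were not examined with the length correction. Scarb1, the receptor for high-density lipoprotein, fell in GFP-negative bone, from 121 ± 6.16 to 70.6 ± 4.04 CPM (log2 -0.78 ± 0.12, adjusted p = 2.38e-05). In GFP-positive bone it held 322 ± 20.7 CPM in controls and 309.6 ± 4.0 CPM in knockouts (adjusted p = 0.719). Osbpl5, an oxysterol-binding protein that moves lipid between membranes, rose in all 3 subsets (log2 0.49, 0.63 and 0.94).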

How the data were processed

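Raw read counts per gene were deposited by the authors for 18 libraries, made with featureCounts per the file headers, and mm10, STAR and DESeq2, with no versions, are listed in the submitters' processing notes. Per the labels' protocols, RNA was extracted with an RNeasy Plus Micro kit and libraries used SMART-Seq v4 and SMARTer ThruPLEX reagents. Strand setting and treatment of reads with several matches are not stated in the labels or headers used here, which makes overlapping genes uncertain.

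Symbols and coordinates came from a mouse annotation of mm10 (54409 of 54446 IDs matched). Groups came from the titles and genotype labels. All libraries were fitted in 1 model with 6 group means (12 residual degrees of freedom) in edgeR 4.0.16 under R 4.3.3, with TMM scaling and filterByExpr on the groups (a count of 10 and a total of 15 as minima), leaving 15516 genes. The robust quasi-likelihood F-test was two-sided, and p-values were BH-adjusted across the genes tested, with 0.05 as threshold. The SE is the log2 fold change divided by the square root of F. Totals of 16443595 to 27160257 counts set the precision. The procedure was tested on simulated data before use.

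The 32 genes, their roles, the further lists, the cell type markers and the tests were chosen with earlier results of these data known. Values in every library are given for at most 5 genes per role, those past 0.05 in a knockout comparison whose higher group averaged 5 CPM or more without overlap of libraries, smallest adjusted p first. Further lists name at most 4 genes by the same rule, and not every gene of those lists is reported here.

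Replicate numbers were checked for pairing over 8624 genes with a mean log2 CPM above 3. Same-number libraries of different subsets deviated together in 9 of 9 pairs of controls (correlation 0.103 to 0.293) and 9 of 9 of knockouts (0.185 to 0.41), and control and knockout libraries of 1 subset in 2 of 9 (-0.113 to 0.267). Over all genes tested, 1, 8 and 0 of 9 were above 0.1. The numbers were therefore taken, from the data and not the labels, to pair subsets within a genotype but not knockout with control. The pairs of libraries within a group differed by more than sampling noise, and none was merged. Alternatives tried were DESeq2 1.42.0, its size factors (RLE) in edgeR, library totals alone, no filter, only the groups compared, the replicate block, a correction for transcript length (a spline of 5 degrees of freedom per library), and leaving out each library. The replicate block was nested within genotype for the control comparisons and the differences of knockout effect. For knockout against control it was shared by both genotypes, although the numbers were not taken to pair these.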

Additional observations from a re-analysis of the deposited data

Results flagged for a closer look

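The knockout effect differed between subsets for these genes by the test of the difference itself (edgeR, BH-adjusted p under 0.05). Values are differences of log2 fold changes. For GFP-positive minus GFP-negative bone the difference was positive for Hmgcs1 (1.62), Mvk (0.86), Pmvk (0.995), Mvd (1.43), Idi1 (1.48), Fdps (1.56), Fdft1 (1.51), Sqle (1.42), Lss (1.63), Cyp51 (1.46), Tm7sf2 (1.45), Msmo1 (1.46), Hsd17b7 (1.31), Sc5d (1.24), Acat2 (0.74), Srebf2 (1.36), Insig1 (1.02) and Stard4 (1.40), and negative for Mylip (-1.03). For GFP-positive bone minus marrow it was positive for Hmgcs1 (1.47), Pmvk (0.86), Mvd (0.74), Idi1 (1.88), Fdps (1.80), Fdft1 (1.70), Sqle (2.25), Cyp51 (1.70), Msmo1 (1.48), Ebp (0.59), Srebf2 (1.13), Insig1 (1.35), Stard4 (1.34) and Abca1 (1.47). For GFP-negative bone minus marrow the values were Mvk (-0.72), Sqle (0.83), Lss (-1.22), Sc5d (-1.65), Mylip (0.98) and Nr1h3 (-1.12).

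Some of these calls did not hold when single libraries were left out in turn, while the direction stayed the same. The call for Mvd in GFP-positive bone minus marrow was lost without any of 9 libraries in turn (log2 0.61 to 0.76), that for Mvk in GFP-negative bone minus marrow without any of 8 (-0.73 to -0.64), that for Tm7sf2 between the bone subsets without any of 5 (1.22 to 1.46) and that for Ebp in GFP-positive bone minus marrow without either of 2 (0.50 and 0.51). Summed cartilage markers changed by 1.52 in GFP-positive and -0.31 in GFP-negative bone on the log2 scale, knockout over control, and by 0.34 in marrow. Their part in these differences was not tested.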

How the results depend on the processing

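Counts of called genes moved most with the scaling. With library totals alone in place of TMM, 5 genes were higher in GFP-positive knockouts (16 with TMM), the difference of GFP-positive bone minus marrow was 9 higher and 7 lower (14 and 0), that of GFP-negative bone minus marrow was 0 higher and 16 lower (2 and 4), and 7 genes were lower in control GFP-negative bone than in marrow (4). Over all genes the same 2 differences gave 5677 and 3740 calls (2853 and 1209). Msmo1 and Srebf1 turned to -0.063 and -0.010 in GFP-positive bone. With the replicate block, 9 genes were lower in the difference of GFP-negative bone minus marrow (4 without it). The block moved no other count of calls by over 1.5 times and ended 1 call of a single gene, Soat1 in GFP-positive bone (log2 0.50, adjusted p = 0.0538). For knockout against control, as for Soat1, the block treated a replicate number as shared by control and knockout libraries. The numbers were not taken to pair those libraries, so the block results for these comparisons rest on a pairing that was not adopted. The length correction left 2 genes lower in GFP-positive knockouts (6) and made 1 lower in the difference of GFP-positive bone minus marrow (0). It turned Lss to -0.60 in marrow and -0.38 in GFP-positive bone, Soat1 to -0.035, -0.48 and -0.86 in marrow, GFP-positive and GFP-negative bone, and Nr1h2 to 0.24 in GFP-positive bone. The length correction with the replicate block left 2 lower in GFP-positive knockouts, 1 lower in GFP-positive bone minus marrow and 9 lower in GFP-negative bone minus marrow, with -0.61 and -0.38 for Lss, -0.027, -0.48 and -0.86 for Soat1 and 0.24 for Nr1h2. Leaving out 1 library at a time moved 1 count of called genes by over 1.5 times, the genes lower in GFP-positive bone minus marrow, which ranged from 0 to 1 and was 1 without control marrow replicate 1 or knockout GFP-positive replicate 3. Of 68 knockout calls of the 32 genes, 12 were lost without at least 1 library. DESeq2, RLE size factors, no filter and fitting only the groups compared kept every count of called genes within 1.5 times. The causes were not tested. Depth limits Abcg1, at 0.190, 0.316 and 0.433 CPM in control GFP-positive libraries, where 3 counts are 0.0966 to 0.216 CPM.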
